A study of Mus musculus with 22 samples.

Results

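Clone C11 is a GFP reporter clone of mpkCCD cells, an immortalised mouse kidney line of the cortical collecting duct, and its expression profile was compared with those of the reporter clones C1, C43 and C50. All 4 of its libraries entered the comparison, of 22 in the series: 2 from GFP-negative and 2 from GFP-positive sorted cells. The other clones gave 12 libraries with the same layout, 2 per fraction and clone. All clones had received dDAVP, an agonist of the vasopressin V2 receptor, on permeable supports in medium with dexamethasone, selenite and transferrin. The labels name more than one dose and duration of dDAVP and do not say which a library had, for the clones or for WT, so a difference between clones cannot be told apart from one of dose or time. Unsorted wild-type (WT) cells, 3 libraries without and 3 with dDAVP, served as an outside reference. The parent line carries the label mpkCCDc11 secondary clone 38, a name that only resembles that of reporter clone C11. The study's title gives its subject as variable aquaporin-2 expression between cells, read with a GFP reporter.

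Cells of the collecting duct called principal cells take up water through aquaporins and sodium through an epithelial channel, under control of vasopressin and aldosterone. Vasopressin acts through the V2 receptor and cyclic AMP and raises transcription of the water channel gene Aqp2. Cell lines that are cloned from single cells can differ from one another in genes that have no link to the trait under study, because each clone carries the state of its founder cell.

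Values are the authors' TPM, which express each transcript relative to the sum of its library, and differences are of log2(TPM + 1) with the GFP fraction as a covariate, so changes of genes with low TPM are understated. Genes with a mean of at least 1 TPM over the 16 clone libraries were tested, 13113 in all. A gene is called changed at a limma adjusted p (Benjamini-Hochberg over all tested genes) under 0.05. C11 is 1 clone, and the fit treats its 4 libraries as separate samples. Nothing in the labels says that the libraries of a fraction came from separate cultures, so p-values measure the spread between these libraries. Over 4 clones as units, no two-sided permutation test could give a p below 0.25.

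TPM keep no sequencing depth, which is therefore unknown. The C11 libraries held 18616 to 29971 genes above 0 TPM, against 17177 to 30855 in the other clones. Mitochondrial transcripts made up 1.07% to 1.43% of C11 TPM and 1.29% to 1.91% elsewhere among the clones. Ribosomal-protein transcripts reached 8.38% in 1 GFP-negative C50 library and 5.04% at most in C11. Of 10 markers of principal cells, 8 had a mean of at least 1 TPM in the clones, and Scnn1b and Kcnj1 stayed under it. Of 8 markers of intercalated cells, the acid-base cells of the duct, only Atp6v1b1 and Slc4a9 reached 1 TPM. No marker of stroma, endothelium, podocytes or the thick limb and distal convoluted tubule did. Of the immune markers only Cd68 reached it, and their summed TPM was 6.17 to 6.49 in C11 and 3.27 to 12.95 in the other clones. Summed TPM of the proximal tubule markers, mostly Lrp2, was 9.95 to 16.2 in C11 and 0.94 to 12.8 in the other clones. GFP followed the sort in C11, at 9.84 and 10.6 TPM in the GFP-negative and 1254 and 1400 TPM in the GFP-positive libraries.

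C11 differed from the other clones in 130 genes, 80 higher and 50 lower, which is 0.991% of the genes tested (0.61% called higher and 0.381% called lower). Of these, 28 rose and 24 fell by at least 1 on the log2 scale. All 130 had the same sign in the GFP-negative and the GFP-positive libraries. As the genes were called over both fractions together, a shared sign was likely in advance and is no test. The 4 C11 libraries lay above all 12 others in 141 genes (1.08%) and below all 12 in 42 (0.32%). Of the first set 56 were also called, and of the second 31. Over all genes the median difference was 0.08, and median-ratio scaling, which removes it, changed the split of genes beyond the range to 74 above and 79 below. Without any 1 of the 4 C11 libraries the number of calls dropped to between 31 and 52, and the calls were no longer mostly higher: 19 higher and 21 lower or 18 and 21 without a GFP-negative library, 26 and 26 or 13 and 18 without a GFP-positive one. Fits with fewer units gave 1 higher and 8 lower (means per clone and fraction), 1 and 7 (GFP-negative libraries only) and 11 and 11 (GFP-positive only). A fit that let libraries of a clone correlate (clone as a random block) gave 5 higher and 13 lower.

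The filter on low values let some genes in through 1 side of the comparison alone. Of the 80 genes called higher, 10 had a mean under 1 TPM in the other clones, Aqp4 among them. Of the 50 called lower, 12 had a mean under 1 TPM in C11, among them Tgm2, Samd12, Trim35, Prickle3, H2-DMb1 and the pseudogenes Gm3375, Rtraf-ps and Gm5503. The levels of these 22 genes are better read as descriptions than by their p-values. With clone as a random block, all 12 of the largest named rises lost their call, with limma adjusted p-values from 0.0601 to 0.607, and so did 4 of the 12 largest falls, Prickle3, H2-DMb1, Fxyd3 and Hsd11b2. Of 12 called members of the gene lists 11 lost theirs, the exception being Aqp4. With means per clone and fraction as units, Trim35, Cited1 and Abhd6 were lost as well (limma adjusted p 0.111, 0.0574 and 0.493), and so were all 12 called list members, Aqp4 included (0.103).

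The same fit called 2702 genes (20.6%) for C1, 185 (1.41%) for C43 and 362 (2.76%) for C50. By that count C11 had the fewest calls of the 4 clones. By the range criterion C43 had the fewest genes, with 95 above and 48 below all other libraries, against 42 and 149 for C50, 517 and 390 for C1 and the 141 and 42 of C11. Differences between the other clones enter the error of each fit. When the error came only from libraries of the same clone and fraction, C11 had 1183 calls (9.02%; 5.67% higher and 3.36% lower), C1 3816, C43 1436 and C50 1541. Genes at the edge of the range criterion met or missed it narrowly: Khk, the fructose kinase, was at 27.31 to 34.96 TPM in C11 with the highest other library at 27.30 TPM. Sting1, a sensor adaptor of innate immunity, missed it with a lowest C11 library of 120.8 TPM against a highest C43 library of 121.3 TPM. Khk and Sting1 were both called, with differences of 0.54 and 1.00 (limma adjusted p 0.028 and 0.0314).

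The largest falls in C11 included genes near absent there, such as Tgm2 and Samd12, and genes that C11 still expressed, such as Fxyd3 and Abhd6. Tgm2, the crosslinking enzyme transglutaminase 2, stood at 0.33, 0.33, 0.62 and 0.48 TPM in C11. The 12 other libraries ran from 9.40 to 113 TPM with a median of 42.1. The log2 difference was -4.69 (SE 0.43, limma adjusted p 9.37e-06), and WT cells under dDAVP had 25.9 to 34.5 TPM. Tgm2 also rose with dDAVP in WT cells, by 0.98 on the log2 scale (limma adjusted p 0.0145).

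Samd12, which encodes a sterile alpha motif protein, was at 0.01 to 0.76 TPM in C11 and 4.03 to 10.9 TPM elsewhere among the clones. Its log2 difference was -2.72 (SE 0.21, limma adjusted p 9.7e-07). G6pc3 encodes the glucose-6-phosphatase that is found in most tissues. Its C11 values were 1.19, 1.5, 1.9 and 1.46 TPM, against 8.21 to 16.7 with a median of 12.96 in the other clones, a difference of -2.41 (SE 0.16, limma adjusted p 1.22e-07). WT libraries held 8.87 to 13.7 TPM of G6pc3, inside the range of the other clones. For Samd12 and G6pc3 the highest C11 library was well under the lowest library of any other clone.

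Trim35, a ubiquitin ligase, fell to 0.07 to 0.43 TPM from a median of 6.54, a log2 difference of -2.36. Prickle3, a planar cell polarity protein whose gene is on chromosome X, was at 0.32 to 0.85 TPM in C11 and 1.62 to 13.3 elsewhere (difference -2.16). Spata6, known from sperm tail formation, was at 2.34 to 3.85 TPM against 8.12 to 13.5 (difference -1.65). For each of these 3 genes all C11 libraries lay under the lowest library of C1, C43 and C50, with limma adjusted p-values from 4.19e-06 to 0.00601.

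Cited1, a transcriptional coactivator on X, was lower in C11 within each fraction. Its C11 values were 3.04 and 3.58 TPM in GFP-negative and 9.67 and 10.8 TPM in GFP-positive libraries. The other clones ran from 12.7 to 26.3 TPM in the GFP-negative and from 35.4 to 75.4 TPM in the GFP-positive fraction. The log2 difference was -2.10 (SE 0.20, limma adjusted p 1.97e-05). In WT cells Cited1 went from 0.70 to 1.25 TPM without dDAVP to 37.5 to 39.6 TPM with it, a rise of 4.31 on the log2 scale (limma adjusted p 2.91e-05). So a gene that rose strongly with dDAVP in WT cells was at its lowest in C11 among the treated clones.

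H2-DMb1, a chain of the class II antigen loading complex, was at 0.51 to 1.46 TPM in C11 and at 1.76 to 13.97 TPM in the others, where C1 alone held the values above 8. Its difference of -1.89 had a limma adjusted p of 0.0359. It has a near copy, H2-DMb2, at 0.50 to 0.72 TPM in C11 and 0.92 to 11.7 TPM elsewhere, which was not called (difference -1.52, limma adjusted p 0.167), and reads may be split between the pair. The call of H2-DMb1 was lost without any 1 C11 library, either GFP-positive C1 library or the second GFP-positive C43 library. Mgst1, a microsomal glutathione transferase, was singled out after its values were seen: C11 had 0 to 1.17 TPM, C50 1.47 to 2.41, C43 3.87 to 8.53 and C1 121 to 159. All 4 C11 libraries lay under the rest, yet the spread between the other clones left the difference of -3.20 uncalled (limma adjusted p 0.286).

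**Figure D1:**
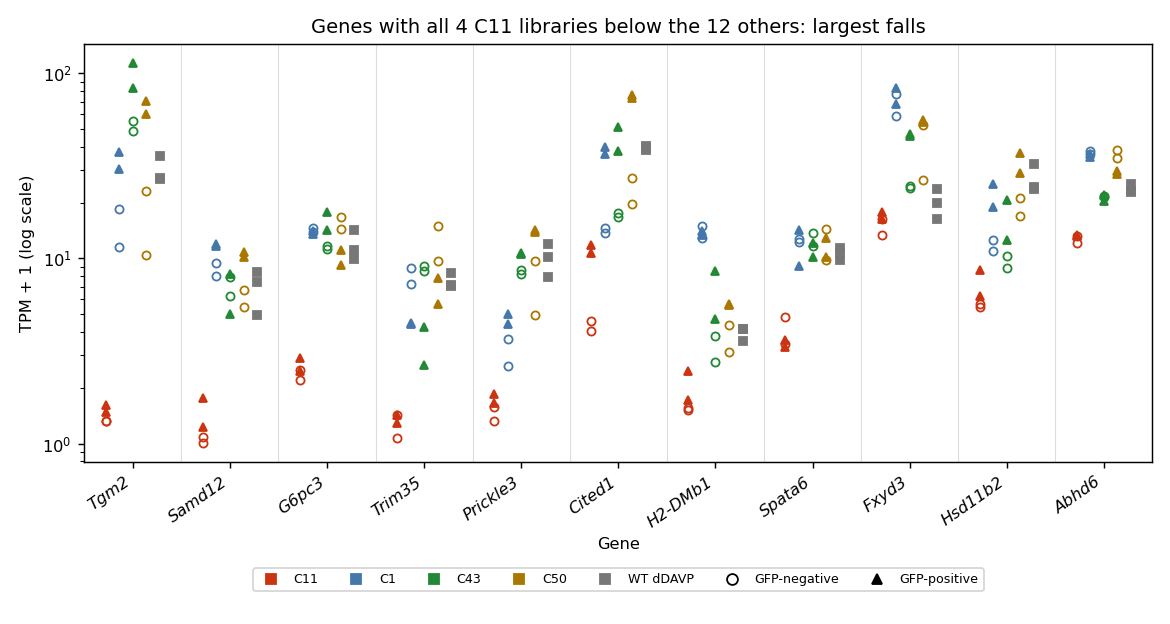
TPM + 1 on a log axis of 11 of the 12 largest falls among genes of at least 5 TPM without provisional symbols. Each point is a library of C11, C1, C43, C50 or WT with dDAVP (open circles GFP-negative, triangles GFP-positive, squares unsorted WT). The red C11 points sit below every point of the other clones for each gene, and for Tgm2 the gap is from 0.62 to 9.40 TPM.

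Among genes of sodium handling, Fxyd3, Fxyd5 and Hsd11b2 fell in C11, and all 3 calls were lost with clone as a random block (limma adjusted p 0.0977 to 0.479). The list of sodium transport regulators had 26 tested members, of which 3 were called lower (0.381% over all genes) and 0 higher, with a median difference of 0.04 against 0.08 over all genes. With the error taken within clone and fraction, 6 members were called higher and 7 lower, against 5.67% and 3.36% of all genes. Fxyd3 and Fxyd5 are small membrane proteins that modulate the sodium pump, and their genes are neighbours on chromosome 7. Fxyd3 was at 12.4, 15.3, 15.4 and 16.9 TPM in C11 against 23.1 to 81.9 with a median of 52.4 (difference -1.59, SE 0.27, limma adjusted p 0.00754). WT cells under dDAVP, at 15.3 to 22.7 TPM, were near C11 for this gene and below the other clones. The call was lost without the second GFP-positive C11 library (limma adjusted p 0.0549).

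Fxyd5 followed the fraction as well as the clone. In the GFP-negative fraction C11 had 4.08 and 3.35 TPM against 8.78 to 32.9, and in the GFP-positive fraction 0.76 and 0.17 TPM against 1.24 to 3.93. Over both fractions the ranges overlapped, and the difference of -1.58 had a limma adjusted p of 0.0285, which was lost without clone C1 (0.0563) or without any C11 library but the first GFP-positive one. The sodium pump subunit Atp1b1 differed by 0.06, the aldosterone-induced kinase Sgk1 by 0.73 and the mineralocorticoid receptor Nr3c2 by 0.92, none of them called.

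Hsd11b2 inactivates glucocorticoids and thereby keeps the mineralocorticoid receptor responsive to aldosterone. It was at 4.46, 4.66, 5.28 and 7.62 TPM in C11, 7.90 to 36.2 TPM with a median of 16.9 in the other clones, and 22.8 to 31.3 TPM in WT cells with dDAVP. The difference was -1.42 (SE 0.25, limma adjusted p 0.0107), with the highest C11 library just under the lowest library of C43. Without either GFP-positive C11 library the call was lost, with limma adjusted p-values up to 0.0655.

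Aqp4, the water channel of the basolateral membrane of principal cells, had higher levels in C11 than in any other clone library. C11 had 2.92 and 2.70 TPM in GFP-negative and 5.97 and 6.46 TPM in GFP-positive libraries, and the 12 others 0 to 0.88 TPM with a median of 0.16. The log2 difference was 2.12, and as Aqp4 passed the filter through C11 alone (mean of 4.51 TPM against 0.234 TPM), its call is no test. WT cells held 1.88 to 2.32 TPM without and 1.59 to 5.81 TPM with dDAVP, so here too C11 was closer to the parent line than the other clones were. The principal cell list had 13 tested members, with 1 called higher (Aqp4), 1 called lower (Hsd11b2) and a median of 0.07, and 2 higher and 5 lower with the error within clone and fraction.

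Aqp2 itself was at 263 and 236 TPM in GFP-negative and 2896 and 3108 TPM in GFP-positive C11 libraries. In both fractions the C11 values lay above those of C1 (66.5 to 72.6 and 2008 to 2027 TPM) and below those of C50 (1232 to 1254 and 4409 to 4894 TPM) and C43 (1568 to 1680 and 6649 to 7254 TPM). Set against the 3 other clones together, Aqp2 differed by -0.74 (SE 0.76, limma adjusted p 0.744) and was not called, but without clone C1 the difference was -1.71 with a limma adjusted p of 0.00719. GFP differed by -0.06 (SE 0.19, limma adjusted p 0.915), and the C11 values of each fraction lay within the range of the others. Avpr2, the V2 receptor, differed by 0.08 (limma adjusted p 0.761), and of 27 tested members of the V2 receptor and cyclic AMP list 0 were called (median 0.09), and 4 higher and 0 lower with the error within clone and fraction.

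The 12 largest rises are of called genes beyond the range of the other clones, with a mean of at least 5 TPM in either set. Provisional symbols were left out, and these rises were smaller than the largest falls. The provisional entries Gm26447, ENSMUSG00002076683 and Gm26003 were called with larger differences of 3.98, 2.88 and 2.67. Each had a mean under 1 TPM in the other clones, so their calls are no test. St6gal1, a sialyltransferase of the Golgi, was at 25.9, 26.04, 21.5 and 26.2 TPM in C11 and 2.69 to 15.6 TPM with a median of 6.08 in the others (difference 1.70, SE 0.31, limma adjusted p 0.0138). Slc25a35, a carrier of the inner mitochondrial membrane, was at 15.5, 15.2, 21.6 and 20.1 TPM against 1.69 to 10.1 (difference 1.66, SE 0.26, limma adjusted p 0.00399). Nfe2l3, a transcription factor of the cap'n'collar family, was at 5.41 to 7.31 TPM against 0.53 to 2.65 (difference 1.48, SE 0.22, limma adjusted p 0.00286). In all 3 genes the WT libraries, with or without dDAVP, stayed below the lowest C11 library. St6gal1 lost its call without any C11 library but the first GFP-positive one, with limma adjusted p-values up to 0.0918, while Slc25a35 and Nfe2l3 kept theirs without any 1 library and lost them with clone as a random block (limma adjusted p 0.0601 and 0.0658).

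Sphk1, the kinase that makes sphingosine 1-phosphate, was the most abundant of the 12 named rises. Its C11 values of 207, 201, 220 and 223 TPM compared with 45.2 to 127 TPM with a median of 96.2 in the other clones, a difference of 1.21 (SE 0.22, limma adjusted p 0.0113). Tinag, an antigen of the tubular basement membrane, was at 24.5 and 25.3 TPM in GFP-negative and 15.7 and 15.0 TPM in GFP-positive C11 cells. The others ran from 2.06 to 14.3 TPM, and the difference was 1.40 (SE 0.21, limma adjusted p 0.00285). Sphk1 and Tinag were both lower in WT cells than in any C11 library. Sphk1 was not called without either GFP-positive C11 library (limma adjusted p up to 0.0819).

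Man1c1, a Golgi mannosidase, rose by 1.32, Lhfpl2, a tetraspan membrane protein, by 1.30, and Ccno, a cyclin of multiciliated cells, by 1.03. Lhfpl2 in C11, at 13.4 to 19.7 TPM, overlapped WT cells with dDAVP at 11.2 to 13.6 TPM. Nos1ap, the adaptor of neuronal nitric oxide synthase, was at 16.8 to 30.1 TPM against 0.91 to 10.6 (difference 1.70), and the gene overlaps Gm7694, which was also called. Lrrc34 and Lrriq4, leucine-rich repeat genes that overlap on chromosome 3, rose by 1.41 and 1.11. Reads of overlapping genes cannot be told apart here, so each such pair may be 1 signal. Limma adjusted p-values of these 6 named rises were between 0.00922 and 0.0217, and each was lost without 2 to 4 of the C11 libraries in turn, the 2 GFP-negative ones among them. Nos1ap was also not called without clone C1 (limma adjusted p 0.0787).

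**Figure D2:**
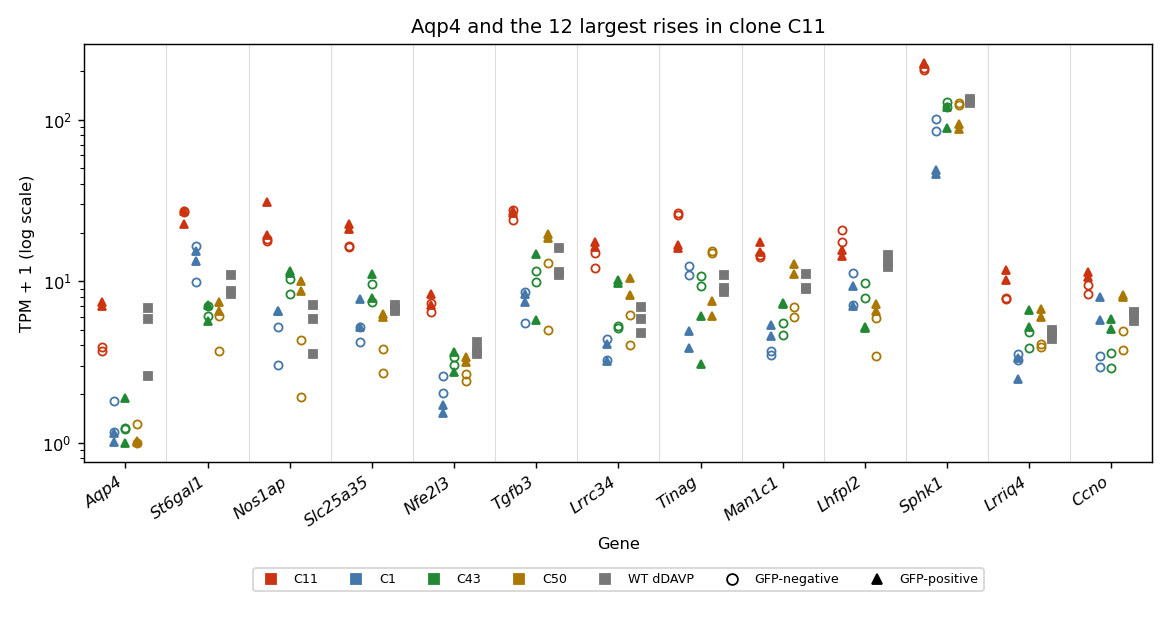
TPM + 1 on a log axis of Aqp4 and the 12 largest rises among called genes beyond the range, of at least 5 TPM and without provisional symbols. Points are libraries of C11, C1, C43, C50 and WT with dDAVP, with symbols by fraction. Red C11 points lie above all points of the other clones, with Sphk1 at 201 to 223 TPM against at most 127, while WT points overlap or approach C11 for Aqp4 and Lhfpl2.

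Lists of signalling and stress genes had few members called. Of 37 tested Wnt, Notch, TGF-beta and EGF ligands and receptors, 2 were called higher (0.61% over all genes) and 0 lower, with a median of 0.29. Both calls, of Tgfb3 and Btc, were lost with clone as a random block (limma adjusted p 0.607 and 0.314). They were Tgfb3, a TGF-beta ligand, at 22.9, 26.6, 25.4 and 26.3 TPM against 4.02 to 18.5 (difference 1.44, limma adjusted p 0.0314), and Btc, the EGF receptor ligand betacellulin. Btc was at 44.3 and 43.04 TPM in GFP-negative and 63.6 and 72.1 TPM in GFP-positive C11 cells, above the other clones in each fraction (18.0 to 22.8 and 30.2 to 60.8 TPM), a difference of 0.83 (limma adjusted p 0.0157). Btc also rose with dDAVP in WT cells, by 0.61 (limma adjusted p 0.0131). Leaving out any C11 library but the first GFP-positive one ended the call of Btc, and any C11 or GFP-positive C1 library that of Tgfb3. Tgfb3 was also not called without clone C1 (limma adjusted p 0.118).

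Of 27 tested p53 targets and cell cycle inhibitors 2 were called higher, Sesn1 and Gadd45b, a pair of stress-response genes, with differences of 0.69 and 0.45 and a list median of -0.10. Over all genes 0.61% were called higher, and with clone as a random block both calls were lost (limma adjusted p 0.555 and 0.258). Of 22 NF-kB and chemokine genes 1 was called higher, against the same 0.61%: Lcn2, the iron-siderophore binding lipocalin 2, at 4081 and 3949 TPM in GFP-negative and 2070 and 1807 TPM in GFP-positive C11 cells. Other clones held 1346 to 2307 and 453 to 1418 TPM of Lcn2 in those fractions (difference 1.17, limma adjusted p 0.0399, and 0.479 with clone as a random block). Akr1b10, an aldo-keto reductase, was the 1 called member of 25 in the oxidative stress list, at 37.1 to 40.4 TPM against 41.2 to 61.3 (difference -0.44, limma adjusted p 0.0374, and 0.535 with clone as a random block), where 0.381% of all genes were called lower. These 4 calls depended on single libraries: Sesn1, Gadd45b, Lcn2 and Akr1b10 lost theirs without 1 of 10, 12, 9 and 11 of the 16 libraries, each C11 library among them, and Gadd45b and Lcn2 also under median-ratio scaling. Without clone C1, Gadd45b and Akr1b10 were not called (limma adjusted p 0.122 and 0.0893), nor was Gadd45b without clone C43 (0.0734).

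Of 28 tested glycolysis and hypoxia genes 2 were called lower (0.381% over all genes) and 0 higher, with a list median of -0.23 against 0.08 over all genes. Both calls, of Aldoa and Adm, were lost with clone as a random block (limma adjusted p 0.535 and 0.274). Aldoa, the glycolytic aldolase, was at 691, 692, 821 and 804 TPM against 848 to 1219 (difference -0.42, limma adjusted p 0.0403). Adm, the hypoxia-induced vasodilator adrenomedullin, was at 5.08 to 8.24 TPM against 8.01 to 27.8 (difference -1.10, limma adjusted p 0.0314). Gapdh, Pgk1 and Ldha differed by -0.30, -0.34 and -0.24, not called. Aldoa lost its call without 1 of 10 libraries and under median-ratio scaling, and Adm without any C11 library or the first GFP-positive C1 library. Adm was also not called without clone C1 or C43 (limma adjusted p 0.0964 and 0.0567), nor Aldoa without clone C1 or C50 (0.0665 and 0.057).

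In all, 18 of the 25 lists, among them those of V2 receptor signalling, cell cycle, interferon, cholesterol, Hox, imprinted, tight junction and immediate early genes, had 0 members called by limma in either direction. At an unadjusted p under 0.05 the whole fit held 1513 genes. With the error within clone and fraction, which called 5.67% of all genes higher and 3.36% lower, the lists went in several directions. The glycolysis list then had 0 called higher and 10 lower, the p53 list 4 higher and 7 lower, and the oxidative stress list 3 and 6. The list of ligands and receptors had 7 higher and 1 lower, the NF-kB list 4 and 0, the interferon list 6 and 1, and the immediate early list 5 and 2.

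Genes on chromosome 14 stood out among the falls. Of the 42 genes below all other libraries 13 were on chromosome 14 (31.0%), and so were 15 of the 50 genes called lower (30.0%), while the chromosome held 412 of the 12911 tested genes that mapped to chromosomes 1 to 19 or X (3.19%). By share of genes, 3.16% on chromosome 14 were below all others, and 0.228% of all other tested genes, unmapped ones included. The median difference on chromosome 14 was -0.19, with 79.4% of its genes below 0, against 36.3% below 0 over all genes. In 8 blocks of genes along the chromosome the median was between -0.26 and -0.10, so no single block carried the shift. The choice of this chromosome was made with the values in view.

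**Figure D3:**
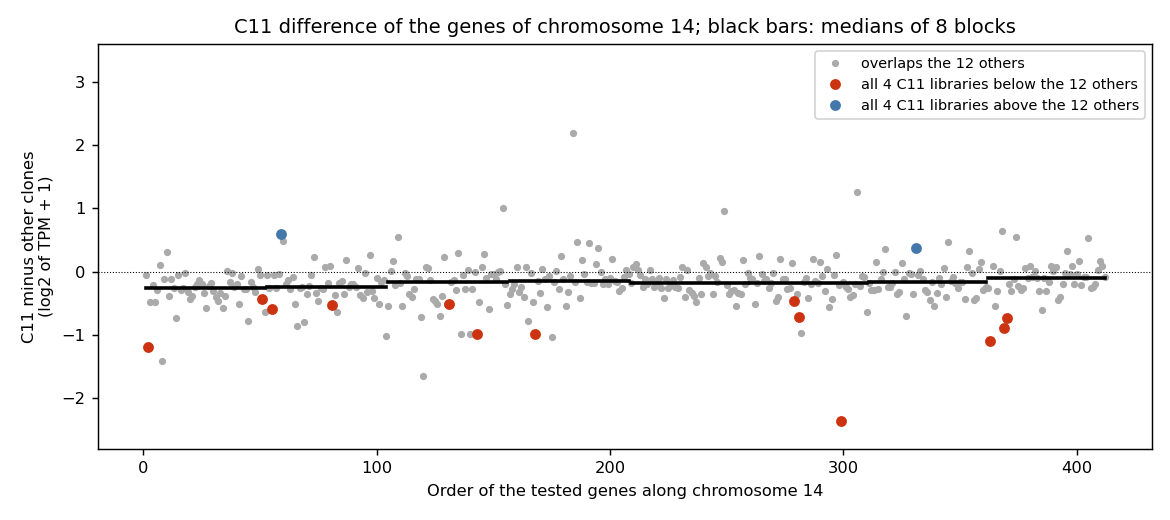
Difference of C11 from the other clones in log2(TPM + 1) for each of the 412 tested genes of chromosome 14, in their order along it, with red points for the 13 genes below all other libraries, blue for the 2 above, and black bars for the medians of 8 blocks. Every bar lies below 0, between -0.26 and -0.10.

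The median shift of chromosome 14 was shared with clone C43. Each gene's deviation was taken from its mean over the clone libraries of the same GFP fraction. The median over a chromosome was then set against the library's median over all tested genes. By this measure chromosome 14 was at -0.21 to -0.18 in the C11 libraries and at -0.19 to -0.16 in those of C43. C1 libraries were at 0.15 to 0.21 and C50 libraries at 0.19 to 0.20, and WT libraries with dDAVP lay between, at 0.06 to 0.07. C11 and C43 overlapped, and both were apart from C1 and C50. Without C43 the C11 shift relative to all genes went from -0.26 to -0.38, and 59 genes of chromosome 14 were then below all others.

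On no chromosome did all 4 C11 libraries have a median beyond the 12 others. C1 had 12 such chromosomes of 20, C43 had 5 and C50 had 1. The C11 contrast was also positive on chromosomes 10, 12 and 16, with medians of 0.21, 0.19 and 0.21. There the per-library values show the low clone to be another: C1 on chromosome 10 (-0.32 to -0.29, with C11 at 0.09 to 0.13), C43 on chromosome 12 (-0.23 to -0.17, with C11 at 0.07 to 0.13) and C50 on chromosome 16 (-0.28 to -0.22, with C11 at 0.10 to 0.14). On chromosome 5 the C11 libraries split by fraction in value, and their range of -0.02 to 0.09 overlapped that of C1 at 0.07 to 0.16.

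The 13 chromosome 14 genes below all others were Trim35, Abhd6, Pcdh17, Ndrg2, Lgals3, Mzt1, Bora, Neil2, Rps24, Spcs1, Cnih1, Ctsb and Vdac2. Trim35, Pcdh17 and Ndrg2 were at 0.5 TPM or less in every C11 library, and Trim35 was at 1.66 to 8.09 TPM in C43. Pcdh17, a protocadherin, was at 0.01 to 0.21 TPM in C11, 0.68 to 1.40 TPM in C43 and 0.27 to 0.57 TPM in WT cells with dDAVP, which were below the C43 libraries. Abhd6, a monoacylglycerol lipase, was at 11.1, 12.3, 12.4 and 12.2 TPM in C11, 19.3 to 20.9 in C43, 27.6 to 37.7 in C50 and, within that range, 34.4 to 37.0 in C1 (difference -1.18, SE 0.19, limma adjusted p 0.00399).

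Lgals3, the lectin galectin-3, fell by 0.98 on the log2 scale (limma adjusted p 0.00408), to 279, 262, 251 and 256 TPM from 320 to 933. Mzt1, a part of the gamma-tubulin complex, and Bora, an activator of the mitotic kinase Aurora A, are neighbours and differed by -0.89 and -0.74. Ctsb, the lysosomal protease cathepsin B, was at 316 to 344 TPM against 361 to 553, and Vdac2, a channel of the outer mitochondrial membrane, at 191 to 229 TPM against 245 to 328. Neil2, Rps24 and Spcs1 were below all others and not called (limma adjusted p 0.072, 0.228 and 0.0945).

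The largest fall of all was of Gm3375, a processed pseudogene of Psmb5. Processed pseudogenes are copies of a spliced messenger RNA that were inserted elsewhere in the genome, and reads of a copy and its parent differ at few bases. Psmb5 encodes the chymotrypsin-like catalytic subunit of the proteasome. By GENCODE M21 (GRCm38), Gm3375 is at chr7:3181093-3181888 on the plus strand and Psmb5 at chr14:54614119-54618022 on the minus strand. Over 796 aligned positions their transcripts were 98.9% identical, with 8 substitutions and 1 gap. Counted from the first base of the Psmb5 transcript, and with the base of Psmb5 first, the substitutions were G37A, G137A, C328T, C337T, T418A, C448T, T496C and C691A. The stretches below show how little separates the 2 transcripts for the assignment of short reads, with the differing bases in capitals and all from the GENCODE M21 transcripts, 5′ to 3′.
Psmb5, bases 112 to 161: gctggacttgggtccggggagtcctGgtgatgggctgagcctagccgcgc
Gm3375, bases 81 to 130: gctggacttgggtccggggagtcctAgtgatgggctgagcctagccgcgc
Psmb5, bases 314 to 362: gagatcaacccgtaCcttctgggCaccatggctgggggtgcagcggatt
Gm3375, bases 284 to 332: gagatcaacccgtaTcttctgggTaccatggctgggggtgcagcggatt
Psmb5, bases 401 to 460: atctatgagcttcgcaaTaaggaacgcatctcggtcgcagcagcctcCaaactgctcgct
Gm3375, bases 371 to 430: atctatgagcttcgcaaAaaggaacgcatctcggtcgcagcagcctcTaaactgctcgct

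Gm3375 was at 0.74, 0.21, 1.01 and 0.34 TPM in C11 and at 43.3 to 92.7 TPM with a median of 50.1 in the other clones. WT libraries held 39.2 to 55.0 TPM. The log2 difference was -5.20 (SE 0.17, limma adjusted p 1.01e-11). Its parent did not follow: Psmb5 was at 285 to 374 TPM in C11 and 231 to 580 TPM in the others, a difference of -0.01 (limma adjusted p 0.987). As a share of Psmb5, Gm3375 made up 0.065% to 0.347% in C11, 14.8% to 23.1% in the other clones and 14.8% to 17.1% in WT cells.

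Rtraf-ps and Gm5503, processed pseudogenes of Rtraf and Osgep, behaved alike. Rtraf encodes an RNA-binding protein of the tRNA ligase complex, and Osgep the catalytic subunit of the complex that adds threonylcarbamoyl to tRNA. Rtraf-ps was at 0.48, 0.90, 0.45 and 0.51 TPM in C11 and 5.41 to 12.4 TPM in the others (difference -2.60, limma adjusted p 1.35e-07). Gm5503 was listed at 0 in 3 of the C11 libraries and at 0.17 TPM in the other one, against 4.2 to 10.3 TPM (difference -2.90, limma adjusted p 1.22e-07). Their parents differed by -0.19 and 0.07 with limma adjusted p-values of 0.657 and 0.823. All 3 pseudogenes are outside chromosome 14 and all 3 parents are on it.

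Of 519 processed pseudogenes tested, 467 matched a protein-coding parent over at least 50% of their length. Among the 12 with a parent on chromosome 14, these 3 differed by -5.20 to -2.60 and the other 9 by -0.66 to 0.12. Among the 455 with a parent elsewhere, 2 had a difference of -1 or below. These 3 passed the filter through the other clones alone, so the counts are a description. C43, which shared the low median of chromosome 14, had the highest share of Gm3375 to Psmb5, at 20.8% to 23.1%, where C1 and C50 were at 14.8% to 16.96%. So C11 and C43 were alike in the chromosome median and at opposite ends for this pseudogene. These genes were chosen after their values were seen, reads of near-identical copies can be assigned to the wrong one, and which of the 2 loci produced the reads was not tested.

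**Figure D4:**
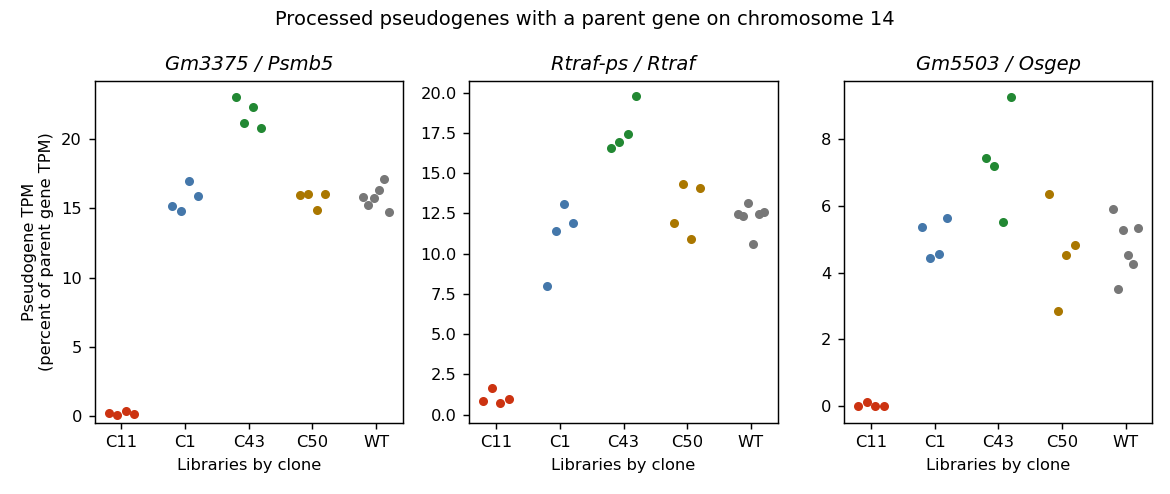
TPM of 3 processed pseudogenes as a percent of the TPM of their parent gene on chromosome 14, in each library of C11, C1, C43, C50 and WT (points, linear axes from near 0). C11 points are at or near 0 in all 3 panels, at 0.065% to 0.347% for Gm3375, and the other clones and WT lie apart above them.

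WT cells resembled the other clones more than C11 at most of the genes that set C11 apart. Under dDAVP the WT mean lay within the range of the 12 other clone libraries for 40 of the 42 genes below range, the exceptions being Fxyd3 and Pcdh17, and for 121 of the 141 genes above range. For all tested genes that share was 98.1%. The WT mean was nearer to the mean of the other clones than to C11 for 38 of the 42 (90.5%) and 109 of the 141 (77.3%), against 55.3% of all genes. Since the genes were chosen by their distance between C11 and the other clones, these shares are descriptions.

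In WT cells dDAVP changed 8.88% of the genes tested there, 320 higher and 878 lower. Without 1 WT library the split ran from 153 higher and 161 lower (without the third untreated library) to 373 and 1665 (without the second dDAVP library), and leaving out any of the other 4 gave 325 to 460 calls. Median-ratio scaling, which takes out a median difference of -0.16, gave 451 higher and 306 lower. Among genes above range in C11, 5 were called higher and 14 lower with dDAVP of 138 tested in both, and among genes below range 5 higher and 1 lower of 41. Tested in both comparisons were 12772 genes, of which 9.33% were called in WT, 318 higher and 874 lower. Cited1, Tgm2, Btc, Lgals3 and Aldoa rose with dDAVP in WT cells, and Sesn1 and Gadd45b fell, by 0.58 and 0.30 on the log2 scale. Under median-ratio scaling these directions held, while Lgals3 and Gadd45b were no longer called (limma adjusted p 0.067 and 0.539).

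Differences of C11 that depended on the GFP fraction were called for 2 genes (0.0153%), with 169 at an unadjusted p under 0.05 in the same limma fit. Both were provisional transcripts that passed the filter through the 2 GFP-positive C11 libraries alone, so these calls are no test and are given as levels. Gm24494, a small nucleolar RNA, was at 111 and 50.9 TPM in the GFP-positive C11 libraries and listed at 0 in the other 14 clone libraries. In 1 WT library with dDAVP it was at 24.9 TPM. Gm48789, a processed pseudogene chosen for mention because the count was 2, was at 13.3 and 13.1 TPM in those same C11 libraries and at 0 in all other libraries.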

How the data were processed

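RNA from mpkCCD cells was made into libraries with SMART-Seq HT and Nextera XT kits and sequenced paired-end, per the labels' protocols. STAR and RSEM are named in the submitters' processing notes, and the genome build and annotation are not given in the sources used here. The authors deposited TPM per gene and library. Further columns of that deposited file, 16 in number, are means per group, a ratio of means per comparison and a signal column with each line's highest value, and were not used. Lines sharing a symbol were summed, from 55415 lines to 54514 entries.

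Differences were fitted with limma 3.58.1 (R 4.3.3) on log2(TPM + 1) of genes with a mean of at least 1 TPM over the 16 clone libraries, with a mean-variance trend and the GFP fraction as covariate. Tests were two-sided. The fit was tested on simulated data without differences among the other clones, so that trial does not cover the spread between clones. Chromosomes come from GENCODE M21 by Ensembl ID, and parents of processed pseudogenes from blastn 2.17.0+. Groups and replicate numbers come from the labels. Correlations of same-numbered libraries' deviations ran from -0.207 to 0.257 over 28 pairs of clone groups, so the numbers did not pair libraries.

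Named genes are Aqp2, GFP, the 12 largest rises and falls among called genes beyond the range of the other clones with a mean of at least 5 TPM and no provisional symbol, called members of 25 gene lists, and the largest called fraction-dependent genes of at least 5 TPM. Of these, 1 gene is not reported here. Members and lists were chosen with earlier results of these data known. Alternatives changed the pseudocount, filter, scaling, moderation, covariates, units, libraries and clones.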

Additional observations from a re-analysis of the deposited data

How the results depend on the processing

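Calls for C11 depended on what counts as error and on the library. From 130, the count went to 1183 with the error within clone and fraction, 345 without clone C43, 507 without clone C50, 79 with no filter, 38 with no covariate, 18 with clone as a random block, 9 with means per clone and fraction as units, and 8 or 22 with only GFP-negative or only GFP-positive libraries. Leaving out 1 library gave 31 to 249 calls, the 4 lowest counts (31 to 52) without a C11 library and the highest without the first GFP-negative C50 library. The remaining alternatives gave 99 to 152. With the replicate block, where the pairing of libraries is unknown, there were 117 calls.

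Genes beyond the range went from 183 to 352, 445 and 482 without clones C1, C43 and C50, and to 1820 and 1452 with GFP-negative or GFP-positive libraries alone, where fewer libraries must separate. Leaving out 1 library gave 190 to 272. Of the genes named for a change, counting 3 pseudogenes added after seeing the data, 5 of 36 were called in every alternative (G6pc3, Samd12, Gm3375, Gm5503 and Rtraf-ps), and 0 reversed. Of these only G6pc3 had a mean of at least 1 TPM in C11, and the others passed the filter through the other clones alone. In all, 272 of their 1218 alternative values lost the threshold.

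Aqp2 was called with the error within clone and fraction (-0.74) and without clone C1 (-1.71), and ran from -1.02 to -0.57 without 1 library. GFP turned to 0.038 with only GFP-positive libraries and was not called. Fraction-dependent genes numbered 1 with a pseudocount of 0.1, a mean of 5 TPM or means as units, 19 with no filter, 12 with the error within clone and fraction, and 2 to 10 without 1 library (4 to 10 without a C11 one). The error within clone and fraction gave 1436 calls for C43 and 1541 for C50. The WT comparison had 757 calls with median-ratio scaling and 122 with the replicate block (98 higher and 24 lower), where the pairing of libraries is unknown. Without 1 library it had 314 to 2038 calls, with each of the 6 moving it. Chromosome 14 genes below all others, an alternative added after seeing the data, numbered 25 of 79 with median-ratio scaling, 20 of 82 with quantile normalization and 12 to 16 without 1 library.

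Depth is unknown, so values near 0 TPM carry no detection limit, and C11 is 1 clone.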
